A study of Drosophila melanogaster with 6 samples.

Results

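The nicotinic acetylcholine receptor subunits of the fruit fly Drosophila melanogaster were followed across sorted cells of the embryo and larva. The 10 subunit genes nAChRalpha1 to nAChRalpha7 and nAChRbeta1 to nAChRbeta3 were looked up in the platform's annotation, and each probe set (a group of short probes that together give 1 value) named with only 1 of them was taken. This gave 13 of 13966 probe sets, for 9 of 10844 named genes. The remaining gene, nAChRalpha6, had no such probe set and was not analysed here. Total RNA was hybridized to 6 single-colour arrays. All sorted populations came from material with the red fluorescent protein dsRed1 fused directly to a 2.1 kb promoter fragment of Gad1, whose enzyme produces GABA, the chief inhibitory transmitter of the brain. The group EC_pos (GadECPos) held 4 arrays (a to d) of fluorescent cells from embryonic culture. LB_pos (GadLBPos) was 1 array of the fluorescent fraction of larval brain and ventral nerve cord, and LB_neg (GadLBNeg) was 1 array of the non-fluorescent cells of that tissue. The fluorescent fractions are thus defined by the activity of a promoter fragment and not by Gad1 itself. The labels give no strain, age or culture time and leave unsaid whether each EC_pos array had a culture of its own. The p-values therefore measure only how far these arrays spread, which may be technical.

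Nicotinic receptors are ligand-gated cation channels of the Cys-loop family, assembled from several subunits around a central pore and opened by acetylcholine. In flies acetylcholine is the main fast excitatory transmitter of the central nervous system, whereas glutamate serves at the neuromuscular junction, so these receptors are mostly those of central neurons. Alpha subunits carry an adjacent pair of cysteines in the ligand binding loop and beta subunits lack it. Inhibitory neurons that release GABA receive cholinergic input as other central neurons do, and the receptors are also the targets of neonicotinoid and spinosyn insecticides.

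The arrays and the identity of the sorted cells were checked first. Log2 intensities of EC_pos arrays b, c and d correlated with Pearson's r between 0.908 and 0.944 over the tested probe sets, and array a reached r of 0.588 to 0.707 with them. The ratio of the 3' to the 5' control probe set of GAPDH, a glycolytic enzyme, was 866 on array a and at most 42.4 on any other array. For the control transcript eIF-4a it was 640 on array a, 120 on LB_neg and 18.7 to 46.3 on the others. For actin it was 148 on array a and at most 72.5 elsewhere. The counts and calls that use EC_pos are therefore given below with and without array a. LB_neg is the only array of its group, and the part of its eIF-4a ratio in the larval differences was not tested. Gad1 was at 22.2 to 39.0 in EC_pos, 54.8 on LB_pos and 22 on LB_neg, too dim to test, and VGAT, the vesicular GABA transporter, was at 409 to 967 in EC_pos, 738 on LB_pos and 739.7 on LB_neg. The 6 measured of 8 neuron markers summed to 2009 to 7231 in EC_pos, 9983 on LB_pos and 9636 on LB_neg. The larval sums hide opposite differences: elav was at 1541 on LB_pos and 4940 on LB_neg, whereas futsch was at 2511 on LB_pos and 1012 on LB_neg, nrv3 at 3332 on LB_pos and 1199 on LB_neg and nSyb at 1127 on LB_pos and 463 on LB_neg. The 5 measured of 8 muscle markers summed to 2757 to 12664 in EC_pos, 196.9 on LB_pos and 338 on LB_neg. Neuroblast markers (5 of 5 measured) summed to 1034 to 1699 in EC_pos, 2922 on LB_pos and 7202 on LB_neg, and glial markers (6 of 7) to 3117 to 4415 in EC_pos, 3147 on LB_pos and 6301 on LB_neg. The neuroblast sum on LB_neg rests largely on mira (4453) and wor (1977). Of the other neuroblast markers ase was higher on LB_neg than on LB_pos, dpn was lower (220 against 272), and insc was highest in EC_pos. The glial sum on LB_neg rests largely on gcm, at 3914 there and 500 on LB_pos. Of the 6 glial markers 3 (Gs2, loco and moody) were higher on LB_pos than on LB_neg, and gcm, repo and nrv2 were lower. Epidermal and tracheal markers (5 of 5) summed to 2229 to 16886 in EC_pos, 1957 on LB_pos and 827 on LB_neg. Hemocyte markers (6 of 7) summed to 1549 to 5403 in EC_pos, 1318 on LB_pos and 2162 on LB_neg, and fat body markers (2 of 3) to 270.5 to 525 in EC_pos, 493 on LB_pos and 429.5 on LB_neg. Array a had the lowest neuron, muscle and epidermal sums of EC_pos and the highest hemocyte sum. No marker was listed at 0, and the lowest value among them was 4.6. For transmitter types, ChAT of cholinergic neurons was at 601 to 1490.4 in EC_pos, 3111 on LB_pos and 938 on LB_neg, and VGlut of glutamatergic neurons at 58.0 to 207 in EC_pos, 174 on LB_pos and 106 on LB_neg.

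In the deposited values most subunit probe sets were brightest on LB_pos, and the subunits did not share 1 pattern. LB_pos was the brightest array of all 6 for nAChRalpha2, nAChRalpha3, both probe sets of nAChRalpha5, 1 of the probe sets of nAChRalpha7, and all 3 beta subunits. nAChRalpha4 stood apart from these, with its highest values on EC_pos array a and, among the other arrays, on LB_neg. In these sorted populations fewer cells that express a gene and less RNA of it per cell cannot be told apart. Intensities are the authors' deposited linear values, which are comparable between arrays for the same probe set but not between probe sets. LB_pos also had the highest median intensity, 229.4 against 181.5 to 207.2 on the other arrays. As deposited it exceeded all 4 EC_pos arrays for 8 of the 11 tested subunit probe sets, beside 34.7% of all tested probe sets. Quantile normalization kept these 8, but giving every array the same median left 5, so the lead of LB_pos depends partly on scaling.

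**Figure D1:**
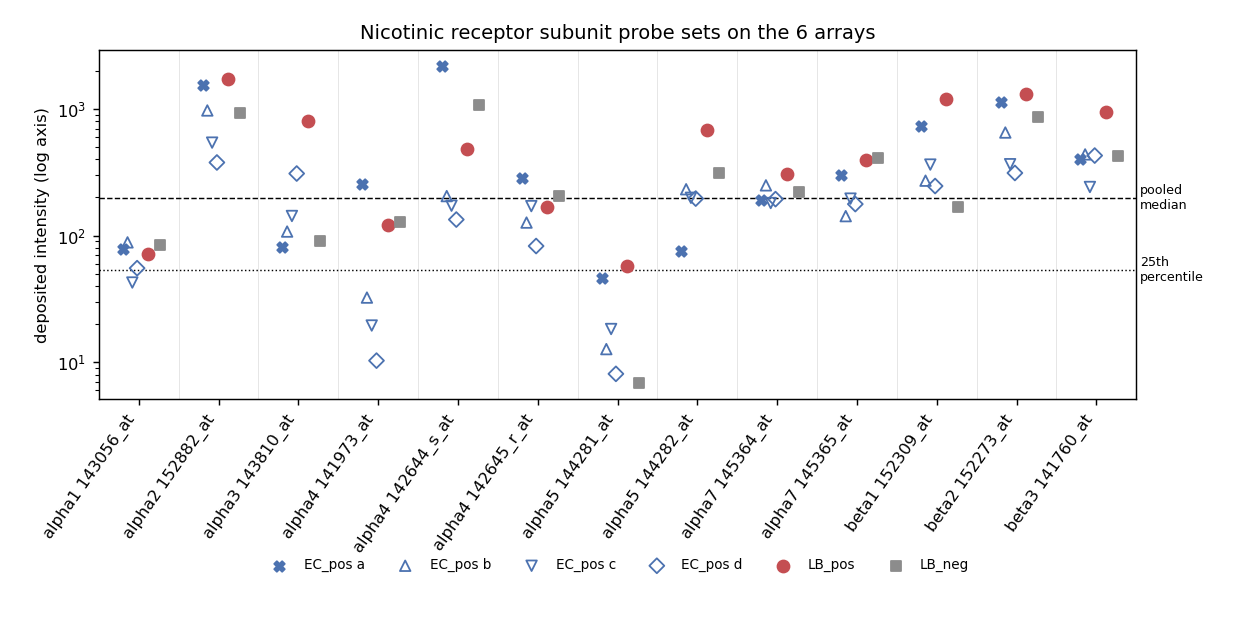
Deposited intensity (log axis) of each of the 13 subunit probe sets on the 6 arrays. Blue symbols are EC_pos arrays (array a filled), red circles LB_pos and grey squares LB_neg; the dashed line is the pooled median of all intensities and the dotted line their 25th percentile, and a probe set was tested if at least 1 array lay above the dashed line. LB_pos lies above all 4 EC_pos arrays for 9 of the 13 probe sets.

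Among the alpha subunits of the first type, nAChRalpha3 differed most between the fractions. Its probe set 143810_at was at 81.6, 108, 143 and 309 on EC_pos arrays a to d, 805 on LB_pos and 90.2 on LB_neg. LB_pos was above every other array, and LB_neg fell within the EC_pos range. nAChRalpha2, a subunit found together with nAChRalpha1 and nAChRbeta2 in 1 gene cluster, was at 1542, 972, 542 and 378 in EC_pos (152882_at), 1723 on LB_pos and 923 on LB_neg. The 4 EC_pos arrays spanned a wide range, LB_pos lay just above the highest of them and LB_neg inside it. nAChRalpha1, mutants of which resist neonicotinoids, was dim everywhere, at 78.5, 88.4, 42.6 and 55.3 in EC_pos (143056_at), 71.4 on LB_pos and 84.9 on LB_neg. All its values lay below the pooled median of 197, so it was not tested, and both larval arrays were inside the EC_pos range.

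nAChRalpha4, loss of which disturbs sleep, had 3 probe sets that shared 1 feature, a high value on EC_pos array a. The brightest, 142644_s_at, was at 2189, 205, 172 and 134 in EC_pos, 482 on LB_pos and 1068 on LB_neg. Array a was 10.7-fold above the next EC_pos array, while b, c and d were all below both larval arrays. The probe set 141973_at was at 254, 32.4, 19.5 and 10.3 in EC_pos, 121 on LB_pos and 129 on LB_neg, with the 6 arrays in the same order. It passed the filter on dim probe sets through array a alone. The probe set 142645_r_at was at 287, 127, 171 and 82.7 in EC_pos, 168 on LB_pos and 207 on LB_neg. On this platform the ending _s_at marks probes that several transcripts share and _r_at a set in which not all probe selection rules could be met, so these 2 values are less specific than those ending in _at.

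The subunits nAChRalpha5 and nAChRalpha7, which with nAChRalpha6 are the fly relatives of the vertebrate alpha7 subunit, had 2 probe sets each. For nAChRalpha5 the probe set 144282_at was at 74.9, 232, 199 and 196 in EC_pos, 678 on LB_pos and 310.2 on LB_neg, so that both larval arrays were above all EC_pos arrays and LB_pos was the brightest. Its other probe set, 144281_at, was at 46.2, 12.7, 18.3 and 8.1 in EC_pos, 57.4 on LB_pos and 6.8 on LB_neg, below the pooled median on every array and not tested. Both probe sets had LB_pos highest and differed on whether LB_neg or an EC_pos array was lowest. For nAChRalpha7, which the escape response of the giant fibre needs, 145364_at was at 192, 249, 181 and 194 in EC_pos, 308 on LB_pos and 223 on LB_neg. The second probe set, 145365_at, was at 301, 142, 196 and 177 in EC_pos, 395 on LB_pos and 408 on LB_neg. LB_pos exceeded all EC_pos arrays with both, and LB_neg did so with 145365_at alone.

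Among the beta subunits nAChRbeta1, which pairs with many alpha subunits, separated the larval fractions most. It was at 734, 271, 364 and 246 in EC_pos (152309_at), 1199 on LB_pos and 168 on LB_neg, so that LB_pos was above and LB_neg below every EC_pos array. nAChRbeta2, whose mutants also resist neonicotinoids, was at 1137, 651, 366 and 312 in EC_pos (152273_at), 1309 on LB_pos and 866 on LB_neg. Its EC_pos arrays spanned a wide range, with LB_pos just above it and LB_neg inside it. nAChRbeta3, a divergent subunit, was at 399, 437, 242 and 428 in EC_pos (141760_at), 945 on LB_pos and 423 on LB_neg. Here LB_pos stood alone and LB_neg was among the EC_pos arrays.

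The pair of larval arrays asks how the subunits differ between reporter-positive cells and the rest of the same tissue. Intensities of nAChRalpha3 were 8.92-fold and those of nAChRbeta1 7.12-fold higher on LB_pos than on LB_neg. nAChRbeta3 was 2.23-fold and nAChRalpha5 (144282_at) 2.19-fold higher. nAChRalpha2 was 1.87-fold and nAChRbeta2 1.51-fold higher, and nAChRalpha4 was at 0.451 of its LB_neg value with 142644_s_at, 0.942 with 141973_at and 0.812 with 142645_r_at. There was 1 array in each fraction and no replicate check, so these differences have no test. All differences below are in units of log2(intensity + 53.6), a scale that understates the change of dim genes. On this scale nAChRalpha3 differed by 2.58, nAChRbeta1 by 2.50, nAChRbeta3 by 1.07, nAChRalpha5 by 1.01 and nAChRalpha4 by -1.07 (142644_s_at), -0.06 (141973_at) and -0.23 (142645_r_at).

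Of the 13 probe sets 11, for 8 genes, lay above the pooled median on at least 1 array and entered the counts. Of these 11, 4 were higher on LB_pos by at least 1 log2 unit, beside 11.8% of all 9635 tested probe sets, and 1 was lower, beside 7.38%, which makes 5 in either direction, beside 19.2%. A positive difference was seen for 7 of 11, beside 56% of all tested probe sets. The median of the 11 was 0.57, beside 0.11 over all tested probe sets. The scaling of the arrays moved this background. The counts over all tested probe sets were 1137 higher and 711 lower as deposited. Quantile normalization gave 809 higher and 922 lower, with a median of -0.02, beside 0.66 for the 11. Scaling to a common median gave 688 higher and 1358 lower, with a median of -0.18, beside 0.245 for the 11. The subunits kept 7 positive differences of 11 under each scaling. At least 1 log2 unit higher were 3 in the quantile-normalized values and 2 at a common median, and 1 was lower by at least 1 unit each time. With a common median nAChRalpha3 differed by 2.30 and nAChRbeta1 by 2.20, nAChRbeta3 by 0.75 and nAChRalpha5 (144282_at) by 0.70. Cell type markers differed between these arrays too. Of 5 tested neuron markers 3 were higher on LB_pos by at least 1 log2 unit and 1 lower, with a median of 1.19. Of 5 neuroblast markers 3 were lower by at least 1 unit, with a median of -1.27. Among these 3, ase (60.0 on LB_pos and 305 on LB_neg) passed the filter on dim probe sets through LB_neg alone. Of 6 glial markers 3 were above 0 and 1, gcm (500 on LB_pos and 3914 on LB_neg), was lower by at least 1 unit. The part of these markers in the subunit differences was not tested.

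The range of the EC_pos arrays is set beside these larval differences as a description only, since it may be technical and does not measure the spread between separate larval sorts. The difference of nAChRalpha3 (2.58) exceeded the full range of arrays a to d for that probe set (1.42), and so did those of nAChRbeta1 (2.50 against 1.39), nAChRbeta3 (1.07 against 0.73) and nAChRalpha7 145364_at (0.39 against 0.37). This held for 4 of 11 subunit probe sets, beside 18.2% of all tested probe sets. Against the range of b, c and d alone it held for 6 of 11, beside 42%, with nAChRalpha5 144282_at (1.01 against 0.20) and nAChRalpha4 142644_s_at (-1.07 against 0.47) added. nAChRalpha2 (0.86) and nAChRbeta2 (0.57) lay inside both ranges.

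**Figure D2:**
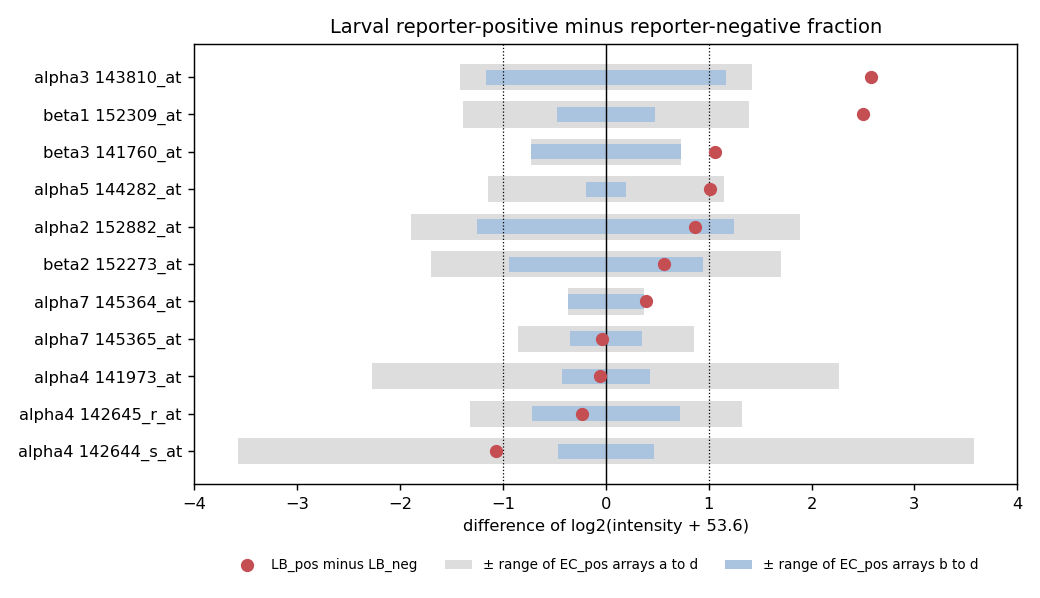
Difference between LB_pos and LB_neg of the 11 tested subunit probe sets on the scale of log2(intensity + 53.6) (red points, 1 array a fraction). Grey bars span plus and minus the range of EC_pos arrays a to d for the same probe set and blue bars that of b to d, and dotted lines mark 1 log2 unit. The points of nAChRalpha3 at 2.58 and nAChRbeta1 at 2.50 lie outside both bars.

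The fluorescent fraction of embryonic culture was then set against that of the larval nervous system. Stage (embryo or larva) and source (culture or tissue) differ together and cannot be told apart. On the log2 scale all 11 tested subunit probe sets had lower means in EC_pos than on LB_pos. In linear intensity nAChRalpha4 142644_s_at had a higher mean in EC_pos, 675 against 481.7 on LB_pos, with array a at 2189. The log2 differences of the 11 probe sets lay between -0.09 for nAChRalpha4 142645_r_at and -2.11 for nAChRalpha3. None passed limma's test at an adjusted p under 0.05 with all 4 arrays, beside 0.0311% of all tested probe sets called (0.0104% as lower and 0.0208% as higher in EC_pos). An unadjusted p under 0.05 was reached by 4 of 11, all lower in EC_pos, beside 13.5% in either direction and 7.09% as lower. LB_pos was brighter than every EC_pos array for 8 of the 11, beside 34.7% of all tested probe sets, and for 9 of all 13. Against b, c and d alone LB_pos was brighter for 10 of the 11, beside 46.5%, dimmer for 0, beside 27.5%, and inside their range for 1, nAChRalpha4 142645_r_at, beside 25.9%. Of the 10, nAChRalpha4 141973_at had entered the 11 through array a alone. Against all 4 LB_pos was dimmer than every EC_pos array for 0, beside 18.7%. The count of 8 remained 8 in the quantile-normalized values and was 5 at a common median. The median of all tested probe sets was -0.24 as deposited and -0.01 with a common median, beside -1.14 for the 11 as deposited and -0.90 with a common median. Without array a the median of the 11, with 141973_at still among them, was -1.28, beside -0.26 over all tested probe sets. With a common median, as after quantile normalization, 10 of 11 differences stayed below 0.

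nAChRalpha3 averaged 160.2 ± 102 in EC_pos (SD, n = 4), against 805 on LB_pos, a difference of -2.11 ± 0.65 (SE, limma adjusted p = 0.278, 95% interval -3.66 to -0.56). nAChRalpha5 (144282_at) averaged 175 ± 69.0 in EC_pos, against 678 on LB_pos, a difference of -1.74 ± 0.59 (limma adjusted p = 0.306). nAChRbeta1 averaged 404 ± 226 in EC_pos, against 1199 on LB_pos, a difference of -1.57 ± 0.64 (limma adjusted p = 0.367), and nAChRbeta3 377 ± 91.3 in EC_pos, against 945 on LB_pos, a difference of -1.24 ± 0.51 (limma adjusted p = 0.364). All 4 EC_pos arrays were below LB_pos for each of these subunits. For nAChRalpha2 the interval ran from -2.97 to 0.69, for nAChRbeta2 from -2.92 to 0.55, and for the probe sets of nAChRalpha7 from -1.61 to 0.61 (145364_at) and -2.07 to 0.40 (145365_at). The interval of nAChRalpha4 142644_s_at, from -3.60 to 2.73, was the widest of the 11, with array a above LB_pos and the other arrays below it.

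Without array a, 3 of the 11 probe sets were lower in EC_pos in limma's test, beside 14.1% of all tested probe sets called, 5.49% as lower and 8.61% as higher. nAChRalpha4 141973_at has no array above the pooled median once a is left out. With the filter on the other 5 arrays, 10 probe sets were tested and the same 3 were called, beside 5.37% called as lower. An unadjusted p under 0.05 was then reached by 8 of 10, all lower in EC_pos, beside 18.5% as lower. nAChRbeta1 differed by -1.87 ± 0.40 (SE, limma adjusted p = 0.0205), nAChRalpha5 144282_at by -1.48 ± 0.39 (limma adjusted p = 0.0422) and nAChRalpha3 by -1.93 ± 0.53 (limma adjusted p = 0.0480). Over b, c and d nAChRbeta1 averaged 294 ± 61.9, nAChRalpha5 209 ± 20.2 and nAChRalpha3 186 ± 108 (SD, n = 3). Array a was the highest EC_pos array for 7 of the 11 and the lowest for 2, nAChRalpha3 and nAChRalpha5 144282_at. Without it nAChRbeta2 (-1.52, limma adjusted p = 0.0585), nAChRalpha4 142644_s_at (-1.27, 0.0731), nAChRalpha2 (-1.47, 0.0831) and nAChRbeta3 (-1.28, 0.0861) did not pass. Leaving out b, c or d instead gave 0 calls among the subunits. Summed neuron markers were lower and muscle markers higher in EC_pos than on LB_pos, as given above, and their part in these differences was not tested.

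**Figure D3:**
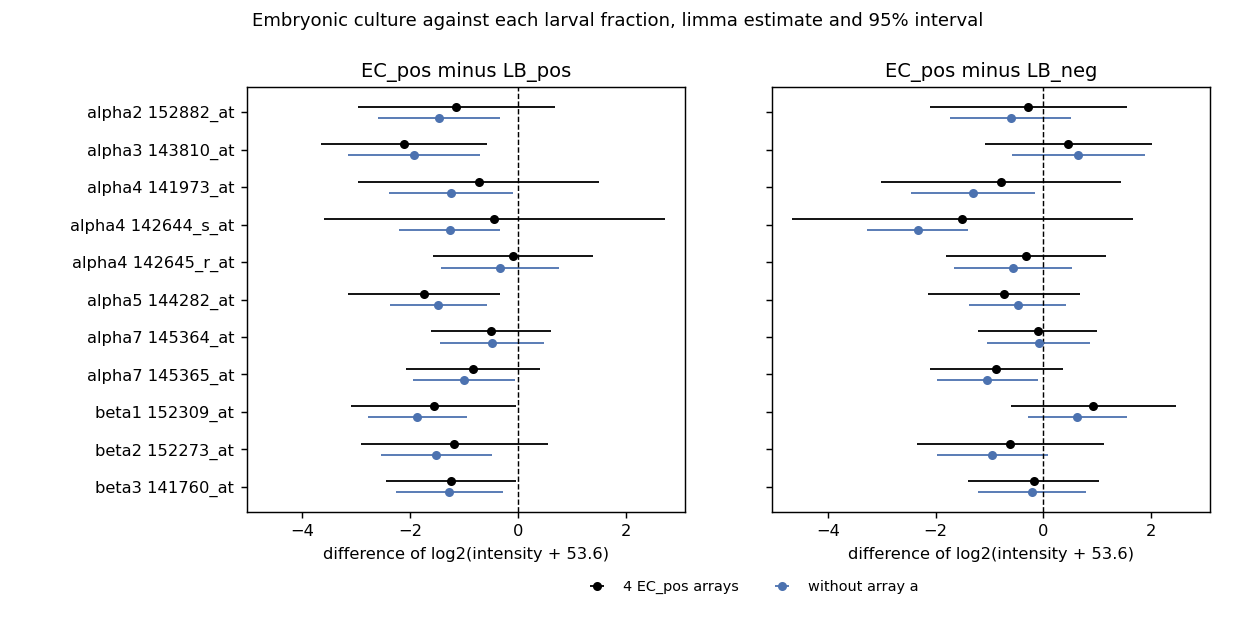
Differences of the 11 tested subunit probe sets between EC_pos and each larval array, with 95% intervals from limma, on the scale of log2(intensity + 53.6). Black points use all 4 EC_pos arrays and blue points leave out array a, without which nAChRalpha4 141973_at is below the filter. Against LB_pos all points lie below 0, and against LB_neg nAChRalpha3 and nAChRbeta1 lie above it.

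EC_pos was also set against the non-fluorescent larval fraction, a comparison in which the cells differ in stage, source and reporter together. It uses the same EC_pos arrays as the one with LB_pos. None of the 11 probe sets passed limma's test, beside 0.54% of all tested probe sets (0.0727% as lower and 0.467% as higher in EC_pos). An unadjusted p under 0.05 was reached by 0, beside 17.4% in either direction and 8.47% as lower. LB_neg lay inside the range of the 4 EC_pos arrays for 8 of the 11, beside 45.3%, but inside that of b, c and d for 3, beside 25.3%. It was above all EC_pos arrays for 2, nAChRalpha5 144282_at and nAChRalpha7 145365_at, beside 30% of all tested probe sets, and below them for 1, nAChRbeta1, beside 24.7%. Against b, c and d alone it was above for 6, beside 41.9%, with the 3 probe sets of nAChRalpha4 and nAChRbeta2 added, and below for 2, beside 32.8%, with nAChRalpha3 added. Of the 6, nAChRalpha4 141973_at had entered the 11 through array a alone. nAChRbeta1 differed between EC_pos and LB_neg by 0.93 ± 0.64 (SE, limma adjusted p = 0.526) and nAChRalpha3 by 0.46 ± 0.65 (limma adjusted p = 0.791). Without array a these were 0.63 (limma adjusted p = 0.300) and 0.65 (limma adjusted p = 0.426), and with all arrays the other 9 differences were below 0. The median over the 11 was -0.32, beside -0.11 over all tested probe sets, and -0.56 without array a (141973_at still included), beside -0.14. Against LB_neg nAChRalpha4 was the 1 subunit whose call depended on array a. With all arrays 142644_s_at differed by -1.50 ± 1.33 (SE, limma adjusted p = 0.634). Without array a it averaged 170.3 ± 35.6 (SD, n = 3) against 1068 on LB_neg and differed by -2.34 ± 0.41 (limma adjusted p = 0.00528), the 1 call among the 11, beside 10.6% of all tested probe sets called as lower and 12.6% as higher. With the filter on the other 5 arrays it was the 1 call of 10, beside 11% called as lower, and 2 of 10 had an unadjusted p under 0.05, beside 19% as lower. With array weights estimated from the EC_pos arrays (0.18 for a) it was -2.27 (limma adjusted p = 0.0476). The probe set 142645_r_at differed by -0.56 without array a (limma adjusted p = 0.441), and 141973_at is dim on all of these arrays.

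The subunits also differed in how alike their profiles were over the arrays. Of the 55 pairs among the 11 tested probe sets, nAChRbeta2 and nAChRalpha2 had the smallest root mean square distance, 0.16 log2 units over the 6 arrays after each was centred on its own mean. They stayed the nearest pair without array a, at 0.17. The genes nAChRalpha2 and nAChRbeta2 are neighbours in the current RefSeq annotation (Release 6 assembly) with 0 protein-coding genes starting between them. nAChRalpha1 lies next to nAChRalpha2 in that annotation with 1 gene, CG31128, between, and it was too dim to be compared. The pair farthest apart was nAChRalpha4 142644_s_at and nAChRalpha3, at 1.85. The 3 probe sets of nAChRalpha4 and those of nAChRalpha7 were each nearest to a probe set of another subunit in all but 1 case, that of 142644_s_at, which was nearest to 141973_at at 0.55. A distance over 6 arrays describes these arrays alone.

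The genes with the nearest profiles were sought for nAChRalpha3 and nAChRbeta1, the subunits with the largest larval differences, among 7884 other named genes. For nAChRalpha3 these were unc80, a subunit of a sodium leak channel complex, at a distance of 0.13, CG18179 at 0.21 and IA-2, a dense-core vesicle protein, at 0.26, where the median gene was at 1.09. unc80 was at 65.3, 93.4, 94.1 and 269.7 in EC_pos, 564 on LB_pos and 60.7 on LB_neg, with the order of LB_pos first and array d next that nAChRalpha3 shows. For nAChRbeta1 they were Sol1 at 0.24, CG12620 at 0.25 and CG12672 at 0.26, where the median gene was at 1.03. Sol1 was at 275, 109, 175 and 70.4 in EC_pos, 629 on LB_pos and 93.8 on LB_neg. Without array a unc80 remained nearest to nAChRalpha3 and CG18179 next, whereas Sol1 ranked 7, CG12672 12 and CG12620 16 for nAChRbeta1. The genes were picked by nearness over these same arrays to subunits high on LB_pos. A shared peak on LB_pos therefore follows from the choice and is no further result. IA-2 and CG12672 passed the filter on dim probe sets through LB_pos alone.

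**Figure D4:**
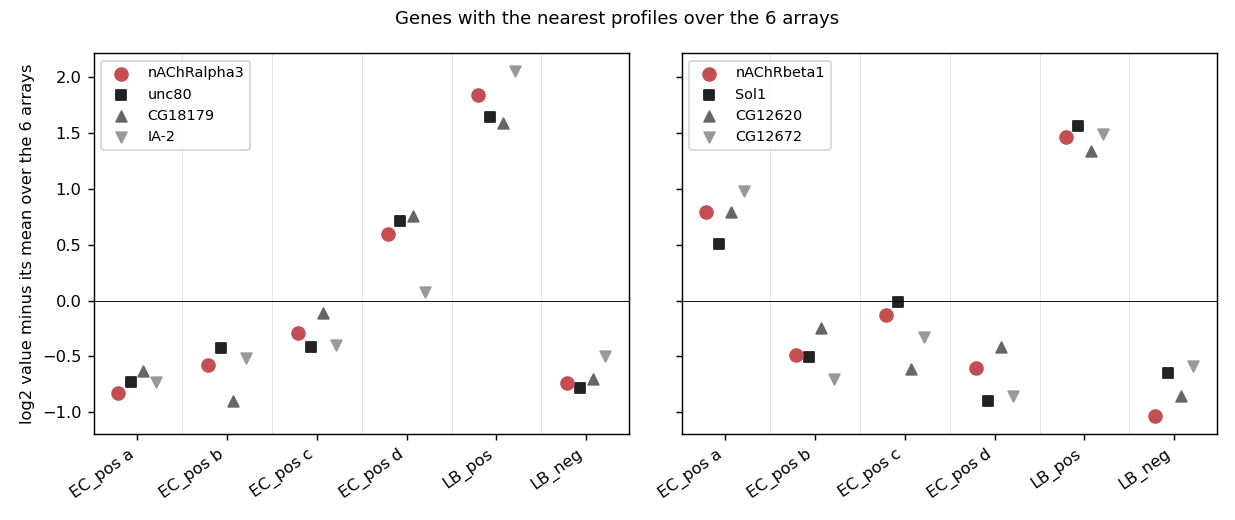
Profiles over the 6 arrays of nAChRalpha3 (left) and nAChRbeta1 (right), red circles, with those of the 3 nearest other genes, as log2(intensity + 53.6) minus the mean of each gene over the arrays. All 4 genes of each panel have their highest value on LB_pos, which follows from choosing the genes by their nearness over these same arrays.

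Genes that make and clear the receptors' transmitter were also brighter on LB_pos than on LB_neg. Of 4 listed genes 3 had a probe set and were tested, and 3 were higher by at least 1 log2 unit, beside 11.8% of all tested probe sets. ChT, the choline transporter, differed by 1.96, ChAT, which makes acetylcholine, by 1.67 and Ace, acetylcholinesterase, by 1.12. Between EC_pos and LB_pos 0 of 3 were called, and 1 was called without array a, ChAT, with a difference of -1.48 (limma adjusted p = 0.0499). Of the 3 muscarinic receptors, which act through G proteins, mAChR-B and mAChR-C had a probe set and both were too dim to test. Among 8 genes for receptor assembly and for synaptic or toxin-like partners, 5 were tested. Hasp, a scaffold protein of cholinergic synapses, was at 164, 461, 671 and 687 in EC_pos, 1823 on LB_pos and 423 on LB_neg, a larval difference of 1.98. The others differed by less than 1 unit between the larval fractions, with -0.56 for Tmx3, a disulphide isomerase of the endoplasmic reticulum, -0.55 for bou and 0.51 for twit, members of the Ly6 family. Between EC_pos and LB_pos 0 of the 5 were called. Without array a Hasp was lower in EC_pos (-1.53, limma adjusted p = 0.0343) and cold, another Ly6 protein, higher (1.97, 0.0429).

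The other Cys-loop channels, which in flies are mostly inhibitory chloride channels, were compared in the same way. Of 12 listed genes 6 were tested, all 6 above 0 and 2 by at least 1 unit, with a median of 0.66. Over all tested probe sets 56% were above 0 and 11.8% by at least 1 unit. GluClalpha passed the filter on dim probe sets through LB_pos alone, which favours a difference above 0, and CG6927 through EC_pos array a alone. Rdl, a GABA receptor subunit, differed by 3.995 and pHCl-1, a chloride channel sensitive to pH, by 1.46. CG6927 differed by 0.71 and Lcch3, also a GABA receptor subunit, by 0.60. Between EC_pos and LB_pos 0 of 6 were called, and without array a Rdl (-2.09, limma adjusted p = 0.00444) and Lcch3 (-2.02, 0.0156) were lower in EC_pos. Of 10 voltage-gated channel and scaffold genes 8 were tested, with 3 higher and 1 lower by at least 1 unit on LB_pos and a median of 0.73. Over all tested probe sets 11.8% were higher and 7.38% lower by that much. The calcium channel Ca-alpha1D differed by 2.32, the potassium channels slo by 2.13 and Sh by 1.13, and the synaptic scaffold dlg1 by -1.57. dlg1 passed the filter on dim probe sets through LB_neg alone, so its lower value on LB_pos is favoured by the filter. Between EC_pos and LB_pos 0 of 8 were called with or without array a. With 1 probe set a gene, the 8 tested subunit genes had a larval median of 0.94, beside 0.09 over the 7892 tested named genes. Against LB_neg the calls without array a were nAChRalpha4 among the subunits, cold (2.11, limma adjusted p = 0.0239), Rdl (1.91, 0.00443), slo (1.64, 0.0434) and Lcch3 (-1.41, 0.0384). Called genes of either direction made up 14.1% of tested probe sets against LB_pos and 23.2% against LB_neg in that fit.

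**Figure D5:**
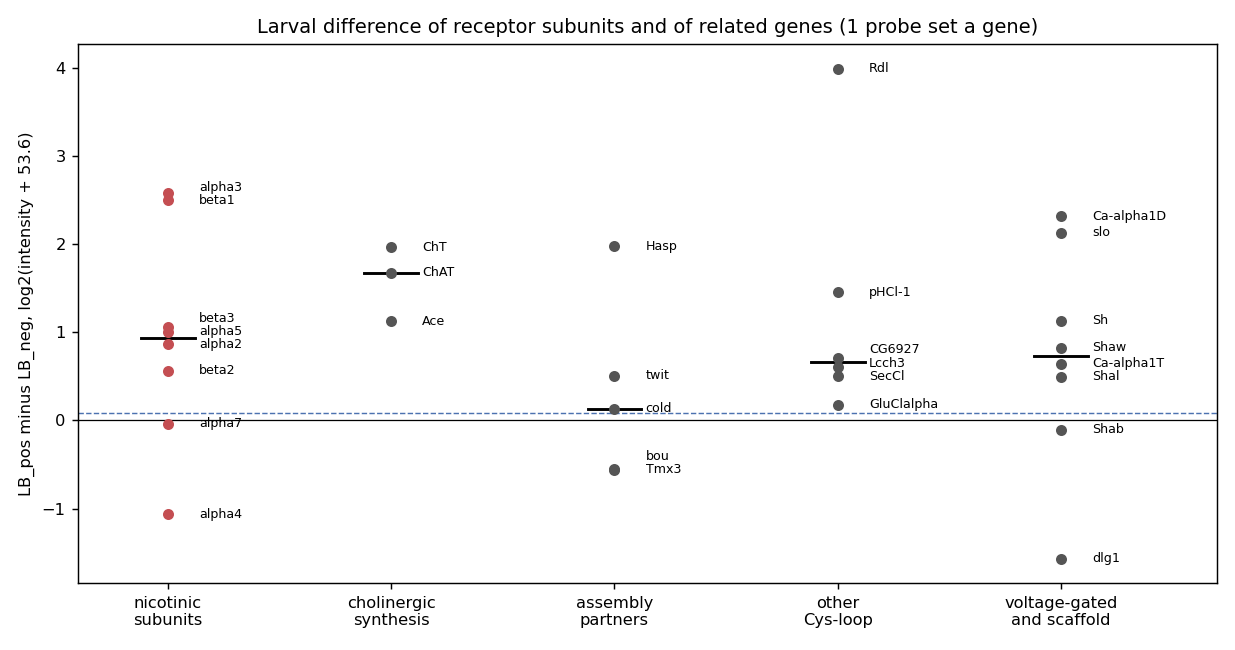
Difference between LB_pos and LB_neg of the tested genes of 5 lists, 1 probe set a gene, on the scale of log2(intensity + 53.6). Black bars are list medians and the dashed line is the median of all tested named genes, 0.09. The nicotinic subunits (red) range from -1.07 for nAChRalpha4 to 2.58 for nAChRalpha3.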

How the data were processed

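Linear intensities deposited by the authors, a single value for each of 14010 probe sets on each of 6 arrays, were the starting point. For the image software, the summary algorithm and the scanner the sources used here give no name, and a genome build is likewise not stated. With 2% of the values trimmed from each end, every array averaged 500.1, so the deposited values were used without further scaling. The 44 control probe sets were left out. At most 18 intensities were identical between any pair of arrays.

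Intensities were transformed as log2(intensity + 53.6), the offset being their 25th percentile, and the 9635 of 13966 probe sets with any array over the pooled median (197.35) were tested. Gene names come from the platform's annotation, with symbols updated through RefSeq gene IDs. Of the probe sets 12443 had 1 gene, 327 several and 1196 none. In lists a gene was represented by its brightest probe set by mean intensity.

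The comparisons used limma 3.58.1 under R 4.3.3 (lmFit, eBayes with trend, Benjamini-Hochberg adjustment over all tested probe sets, two-sided). The fit was tested on simulated data with the same spread on all arrays and no outlying array. That test does not cover data with an array such as EC_pos a. Only EC_pos is replicated, so its arrays supply all 3 residual degrees of freedom and each single larval array is taken to vary as they do. The number of arrays limits the precision.

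All subunit probe sets are named. Of each list other than the cell type markers up to 4 tested genes with the largest differences are named, and any gene called, which was added after the values were seen. The cell type markers are given as sums, counts and single values, and which of them were called is not reported here. For the 2 subunits with the largest larval difference the 3 genes with the nearest profiles are named. The members and lists were chosen with earlier results of these data known. Alternatives were other offsets, filters, scalings and variance priors, array weights, and leaving out each EC_pos array. List counts, profile distances, positions and the repeated filter without array a were added after the data were seen.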

Additional observations from a re-analysis of the deposited data

Results flagged for a closer look

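The values that stood apart from their group belong to nAChRalpha4 on EC_pos array a. The probe set 142644_s_at was at 2189 on array a, and the gap to the next of the 4 EC_pos arrays took up 0.965 of their range. For 141973_at the value was 254.4 and the gap 0.909 of the range. These gaps are in linear intensity and not on the log2 scale used for the tests. For normally distributed values chance alone marks about 1 in 20 such groups of arrays. Whether that rate holds for linear intensities was not tested, and 13 subunit probe sets were examined. Array a also stood apart over all probe sets.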

How the results depend on the processing

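Of 295 subunit differences under the alternatives, 279 kept their direction and call, or, in the untested larval pair, moved by less than 1 SD of the EC_pos arrays, and 3 larval differences moved by more. No subunit was called in the main fit, so a kept call means one still not called. Leaving out the filter cannot change a larval difference. At a common median nAChRbeta3 (0.75) and nAChRalpha5 144282_at (0.70) count as kept, though they fell below 1 log2 unit. The calls gained are given in the report. Those that changed sign were near 0. nAChRalpha4 142645_r_at against LB_pos was 0.13 after quantile normalization, 0.093 with a common median and between -0.33 and 0.11 with 1 EC_pos array left out. nAChRalpha2 against LB_neg was between -0.61 and 0.021 with 1 array left out. The cause was not tested.

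Leaving out 1 array gave 0 (b, c or d) to 3 (a) called subunit probe sets against LB_pos and 0 to 1 against LB_neg, where array weights also gave 1. Over all tested probe sets it gave 0 to 1359 against LB_pos (3 with all arrays) and 0 to 2231 against LB_neg (52 with all arrays). Without a and with the filter on the other 5 arrays the counts were 1320 and 2232, and array weights gave 648 and 1339. Offsets at the 10th and 50th percentile gave 12 and 0 calls against LB_pos and 161 and 7 against LB_neg. Against LB_pos the count was 6 without a filter and 7 after quantile normalization. The count of subunit probe sets at least 1 log2 unit apart between the larval fractions, 5, was 2 with the larger offset and 3 with a common median. No paired analysis was possible because the larval groups have 1 array each and share 1 replicate letter with EC_pos.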
